A study of Homo sapiens with 148 samples.

Results

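The genes described here encode CTCF, the subunits of the cohesin ring and other proteins that hold chromatin loops together. They are CTCF, CTCFL, RAD21, SMC1A, SMC3, STAG1, STAG2, YY1, LDB1 and MAZ, chosen by name for what their proteins do, with earlier results of these data known. All 10 were found, each as a single entry, among the 49085 gene names of a table of mean RNA levels. RNA-seq was performed at 6 stages of an in vitro differentiation of H9 cells, an established line of human embryonic stem cells, toward the pancreatic islet. By the labels, each stage has 2 RNA-seq samples, 12 of the 148 samples of the study, and the other assays are not analysed here.

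Every stage derives from wild-type H9 cells. The first consists of undifferentiated human embryonic stem cells (hESCs), and the other 5 went through the pancreatic differentiation protocol. These are definitive endoderm (DE), primitive gut tube-like cells (PGT), pancreatic progenitors (PP), a stage labelled PH that neither the labels nor the paper's text defines, and organoids with stem cell-derived β cells (SC-β). Since all stages come from 1 line, they say nothing of how other lines behave. Each organoid is a mixture of cells, and in such bulk samples a lower share of cells that express a gene and less of its RNA per cell cannot be told apart.

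Cohesin is a ring of SMC1A, SMC3 and RAD21 to which a STAG subunit binds, and it extrudes loops of DNA until it meets CTCF bound in the right orientation. The STAG subunit is either STAG1 or STAG2, and it helps to hold the ring on DNA and contacts CTCF. YY1 and LDB1 are known for bringing enhancers and promoters together, and MAZ is a zinc finger protein that can act with CTCF at loop anchors and insulators. The paper's question was how CTCF loops are formed and lost on the way to pancreatic cells, and the RNA levels show how much message for this machinery the cells held at each stage.

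Levels are given in TPM, in which reads are divided by transcript length and each stage is scaled to the same total, so that genes can be compared with each other as well as stages. The deposited table holds the authors' mean of the replicates and nothing else. Therefore no value below has an error, no difference has a replicate check, and no test or p-value is given. A log2 ratio to hESCs is log2((TPM + 1)/(TPM in hESCs + 1)), which understates the change of genes at low levels, and a gene was counted as different from hESCs at 2-fold or more on this scale.

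A few structural RNAs took between 31.8% of the TPM total in DE and 50.9% in PH, which leaves less of the fixed total for all other genes in PH than elsewhere. For this reason each stage was also divided by a median-ratio factor, the median over 13938 genes of the gene's level in the stage relative to its geometric mean level; these genes reached 1 TPM at all stages. This rescaling lowers the log2 ratio to hESCs by 0.48 in DE, 0.34 in PGT, 0.25 in PP, 0.03 in PH and 0.52 in SC-β for every gene far above 1 TPM. A list of 11 genes that are widely used as steady references gave another scale, described at the end of the results on CTCF. Ratios between genes of the same stage are the same on all of these scales.

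Stage markers had their highest levels where the labels place them, but PDX1, the progenitor marker, reached only 3.17 TPM in PP. POU5F1 was at 1449 TPM in hESCs and at 0.377 TPM in SC-β, where INS was at 298.1 TPM and GCG at 2793 TPM. In PH, the endoderm and pancreas markers FOXA2 and PDX1 were at 1.167 and 0.0173 TPM. INS and GCG were at 6.86 and 27.2 TPM there, beside 6.93 and 16.5 TPM in PP and 0 in hESCs. Of 6 neural markers, 5 were at least 2-fold above hESCs in PH, as were 27.3% of all names at 1 TPM or more. The summed level of these 6 neural markers was 1114 TPM in PH and between 127.7 and 248.4 TPM in the other stages. All 6 mesenchymal markers were at least 2-fold above hESCs in PH and SC-β, where 27.3% and 42.4% of all names at 1 TPM or more were. The sums of these 6 markers were 495.5 and 1188 TPM, against 14.1 TPM in hESCs.

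The upstream DNA of a pair of members is shown, chosen on different scales. As deposited, STAG1 had the largest log2 ratio to hESCs of the 10 members, and CTCF varied least after rescaling. The largest ratio after rescaling was that of LDB1 in PH, at 1.32. The stretches run 5′ to 3′ on the strand of the gene and are the part of the RefSeq promoter window (GRCh38.p14) that lies before the start of the gene in GENCODE version 44. STAG1 is read from chr3:136752404-136752628, reverse strand, and CTCF from chr16:67562276-67562466, forward strand. Capitals mark matches to a MAZ motif (GGGAGGG) or a CTCF core motif (AGAGGGC or AGATGGC or AGGGGGC or AGGTGGC), searched on both strands.
STAG1: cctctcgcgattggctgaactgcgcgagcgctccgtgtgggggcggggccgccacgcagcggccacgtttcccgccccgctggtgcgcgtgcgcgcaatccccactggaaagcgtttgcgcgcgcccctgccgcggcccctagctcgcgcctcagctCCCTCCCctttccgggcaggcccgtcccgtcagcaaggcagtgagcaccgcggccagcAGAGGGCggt
CTCF: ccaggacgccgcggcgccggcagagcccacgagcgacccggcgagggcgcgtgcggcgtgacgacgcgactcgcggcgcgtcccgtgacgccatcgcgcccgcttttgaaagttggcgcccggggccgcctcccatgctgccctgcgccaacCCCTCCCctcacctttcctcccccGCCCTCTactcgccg

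Both windows are rich in CpG, with 37 CpG in the 300 bases of the STAG1 window and 46 in that of CTCF, against a median of 14 over all 35116 promoters of the table. The STAG1 window holds 1 MAZ match and 2 CTCF core matches, of which the second lies after the RefSeq start and is not shown. The CTCF window holds 1 match to each. Over all promoters, 26.6% hold the MAZ motif and 30.5% one of the CTCF core spellings, so both are common. A YY1 motif (AAGATGGC), present in 2.89% of promoters, was in none of the windows of the 9 members that have one in the table. Such matches are only letters in a window, and no binding was measured here.

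CTCF RNA was present at a similar level at every stage. Its mean was 38.8 TPM in hESCs, 52.8 in DE, 46.3 in PGT and 42.97 in PP, then 35.7 in PH and 48.3 in SC-β. DE was highest and PH lowest, and hESCs and PH were the only stages under 40 TPM. None of the log2 ratios to hESCs reached 0.5, and they ran from -0.12 in PH to 0.44 in DE. The difference between the highest and the lowest log2(TPM + 1) over the stages, called the range from here on, was 0.55 for CTCF. Among 6212 genes that stayed at 10 TPM or more throughout, 10.0% had a smaller range, and the median gene had 1.08.

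After the median-ratio rescaling, CTCF was flatter still. It was at 46.9 TPM in hESCs, 45.7 in DE, 44.3 in PGT and 43.7 in PP, then 42.4 in PH and 40.7 in SC-β. The level was then highest in hESCs and lower at each stage listed after it, and SC-β was 13.1% below hESCs. The range was 0.20, and only 16 of the 6212 genes, or 0.258%, had a smaller one on this scale, where the median gene had 1.00. Such a position says that CTCF stayed close to the typical gene from stage to stage, because the rescaling follows the typical gene.

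On other scales the direction differed. CTCF was above hESCs in 4 of 5 stages as deposited, in 0 of 5 after median-ratio rescaling and in all 5 when the 100 most abundant genes were left out of the totals. The 11 reference genes were themselves lower than in hESCs, with medians between -0.87 in PH and -0.15 in DE, and PSMB4, a proteasome subunit, was at 294.1 TPM in hESCs and at 101.7 TPM in PH. When every stage was scaled to these 11 genes, CTCF was at 30.4 TPM in hESCs and between 44.2 and 48.5 TPM in the other 5 stages, with a range of 0.66 that 17.4% of genes undercut. Whether CTCF RNA per cell differed between hESCs and the later stages is therefore not settled by these means, and the level among the 5 later stages was within a narrow band on both adjusted scales.

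**Figure D1:**
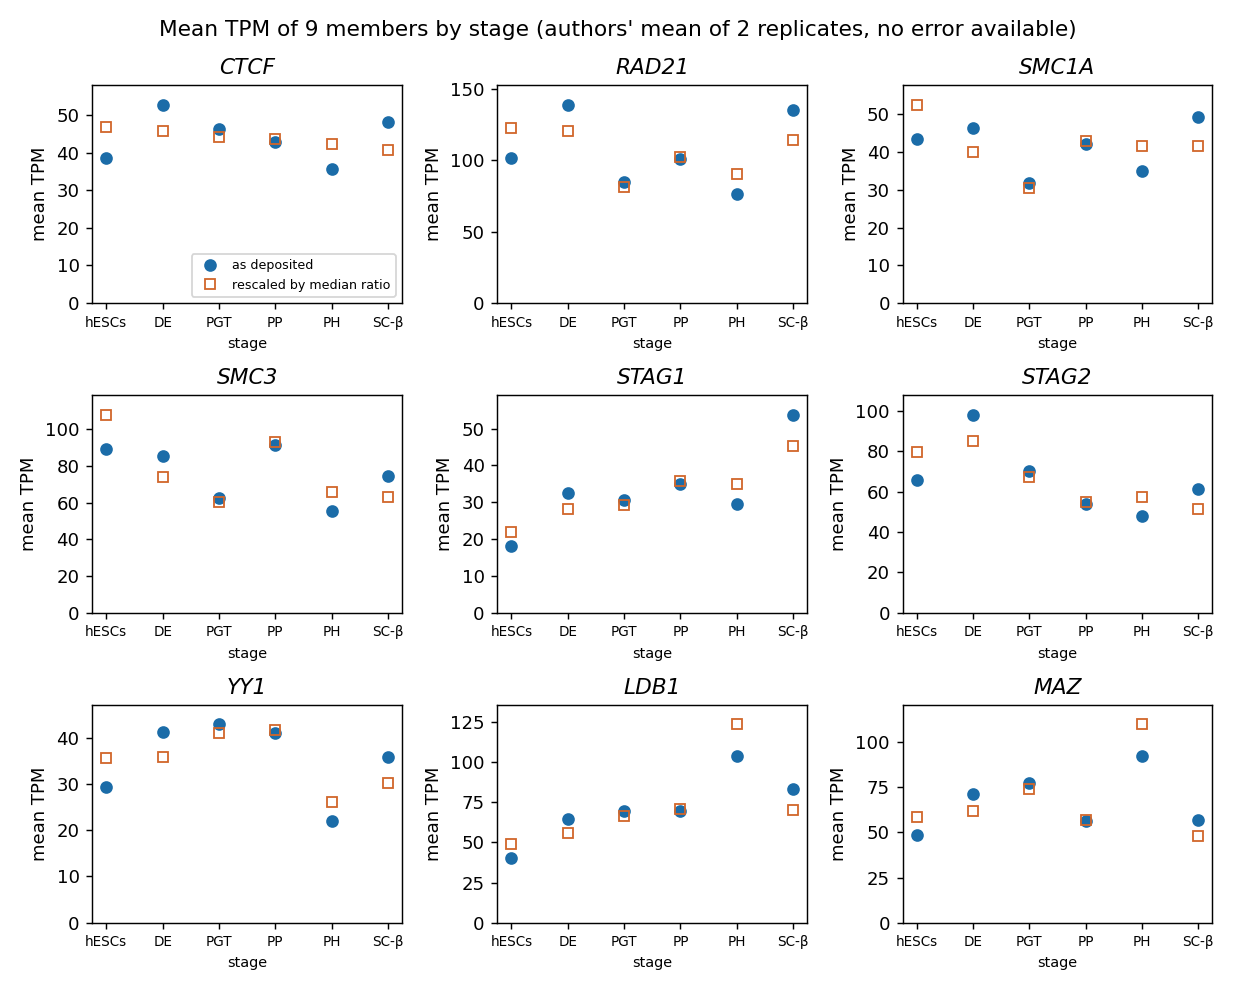
Mean TPM (vertical axes, from 0) of the 9 members other than CTCFL in the 6 stages (horizontal axes). Filled circles are the deposited means and open squares the same means after median-ratio rescaling, each the mean of 2 replicates with no error available. STAG1 is lowest in hESCs and highest in SC-β on both scales, LDB1 and MAZ are highest in PH, and the rescaled CTCF values lie between 40.7 and 46.9 TPM.

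CTCFL, also called BORIS, is the paralogue of CTCF that is normally made in the testis. It was at 0.248 TPM in hESCs, 0.109 in DE, 0.0316 in PGT and 0.0530 in PP, then 0.0512 in PH and 0.135 in SC-β. All of these values are below 1 TPM, where the precision of the table is unknown. CTCFL made up 0.635% of the summed CTCF and CTCFL RNA in hESCs and 0.0682% in PGT, with the other stages between them. Of 8 germ cell markers, SOHLH2 was the only one at 1 TPM or more in hESCs, at 3.36 TPM, and SYCP3, at 2.82 TPM, was the only one in SC-β.

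The ring subunits shared their low stages as deposited, and each had a wider range than CTCF as deposited and after median-ratio rescaling. With the stages scaled to the 11 reference genes this order turned for SMC1A (0.55) and SMC3 (0.51), which were below CTCF (0.66), while RAD21 (0.77) stayed above it. RAD21, the kleisin that closes the ring, was at 101.4 TPM in hESCs, 139.0 in DE, 85.1 in PGT and 100.8 in PP, then 76.3 in PH and 135.5 in SC-β. DE and SC-β were close to each other and stood above the rest, while PGT and PH were lowest. RAD21 had the highest level of the 10 members in every stage but PH, where LDB1 and MAZ were above it.

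SMC1A, which pairs with SMC3 to form the body of the ring, was at 43.4 TPM in hESCs, 46.3 in DE, 31.9 in PGT and 42.3 in PP, then 35.1 in PH and 49.4 in SC-β. SMC3 was at 89.3 TPM in hESCs, 85.7 in DE, 62.8 in PGT and 91.4 in PP, then 55.5 in PH and 74.6 in SC-β. PGT and PH were again the lowest stages for both, PGT for SMC1A and PH for SMC3. The log2 ratios to hESCs in PGT were -0.25 for RAD21, -0.43 for SMC1A and -0.50 for SMC3, and in PH they were -0.41, -0.30 and -0.68, all less than 2-fold.

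After median-ratio rescaling, all 3 ring genes were highest in hESCs and lowest in PGT. RAD21 was then at 122.6 TPM in hESCs and at 81.5 TPM in PGT, SMC1A at 52.6 and 30.6 TPM, and SMC3 at 108.0 and 60.1 TPM, and none of these differences reached 2-fold. PH was still the next lowest stage for RAD21, at 90.7 TPM. For the other ring genes it was not: SMC1A was at 41.7 TPM in PH and 40.1 in DE, and SMC3 at 65.9 TPM in PH and 62.9 in SC-β. The order against hESCs depended on the scale. With the stages scaled to the 11 reference genes, RAD21 was above hESCs in all 5 later stages, and SMC1A and SMC3 in all but PGT.

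Most genes of dividing cells were low in PGT and PH, the low stages of the ring genes as deposited. The summed level of 12 proliferation markers was 1292 TPM in hESCs, 873.5 in DE, 512.9 in PGT and 1017 in PP, then 475.4 in PH and 977.8 in SC-β. At least 2-fold below hESCs were 10 of the 12 in PGT and 9 in PH, against 10.0% and 18.9% of all names at 1 TPM or more. BUB1, a kinase of the mitotic checkpoint, had the largest difference, at 138.8 TPM in hESCs, 29.7 in PGT and 23.0 in PH. MKI67, which encodes the Ki-67 protein of dividing cells, went the other way, at 17.7 TPM in hESCs, 19.5 in PGT and 24.9 in PH. The part of cell division in the levels of the ring genes was not tested.

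Ratios between ring genes of the same stage do not depend on the scale. The RAD21 level was between 2.17 times that of SMC1A in PH and 3.00 times in DE. The SMC3 level was 2.06 times that of SMC1A in hESCs, 1.85 in DE, 1.97 in PGT and 2.16 in PP, then 1.58 in PH and 1.51 in SC-β. PH and SC-β stood below the other stages in this ratio. The summed STAG1 and STAG2 level was 1.93 times that of SMC1A in hESCs and at most 3.15 times, in PGT.

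The balance of the STAG pair differed between stages, with both genes at 10 TPM or more throughout. STAG1 was at 18.2 TPM in hESCs, 32.4 in DE, 30.6 in PGT and 35.0 in PP, then 29.5 in PH and 53.8 in SC-β. hESCs were lowest and SC-β highest, and the 4 stages between them lay within 6 TPM of each other. STAG2 was at 65.7 TPM in hESCs, 98.3 in DE, 70.1 in PGT and 53.7 in PP, then 48.1 in PH and 61.3 in SC-β, with its highest level in DE.

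STAG1 thus made up 21.7% of the summed STAG1 and STAG2 RNA in hESCs, 24.8% in DE, 30.4% in PGT and 39.5% in PP, then 38.0% in PH and 46.8% in SC-β. Leaving PH aside, the share was higher at each stage of the protocol than at the one before. In hESCs there was 3.61 times as much STAG2 as STAG1 RNA, and in SC-β 1.14 times as much, a 3.17-fold difference in the ratio. This share does not depend on how the stages are scaled, since both genes are divided by the same number.

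**Figure D2:**
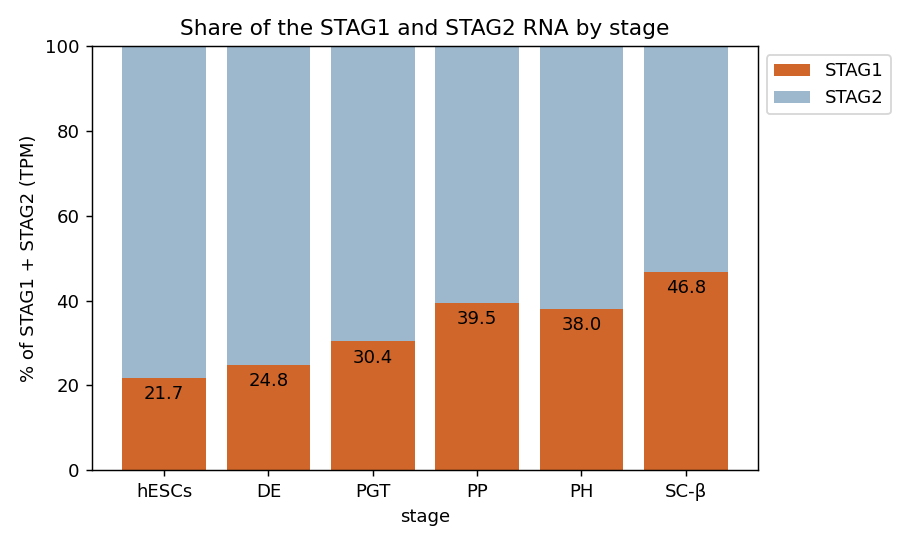
Share of STAG1 (lower part of each bar, value printed) and STAG2 (upper part) in their summed TPM, in % on the vertical axis, by stage on the horizontal axis. The STAG1 part is 21.7% in hESCs and 46.8% in SC-β, with PP and PH close to each other at 39.5% and 38.0%.

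Both genes contributed to the shift after median-ratio rescaling. STAG1 was then at 22.0 TPM in hESCs, 28.1 in DE, 29.3 in PGT and 35.7 in PP, then 35.0 in PH and 45.3 in SC-β, and STAG2 at 79.5, 85.1, 67.1, 54.7, 57.2 and 51.6 TPM in the same order. STAG1 was lowest where STAG2 was among the highest, and SC-β had the highest STAG1 and the lowest STAG2 level. The summed STAG level as deposited ran from 77.6 TPM in PH to 130.7 TPM in DE.

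The direction for STAG1 held on every scale tried: it was above hESCs in all 5 later stages as deposited, after median-ratio rescaling, without the mitochondrially encoded genes, without the 100 most abundant genes and with the stages scaled to the 11 reference genes. Its place among all gene names, ordered by TPM within the stage, was 5512 in hESCs, 4243 in DE, 4010 in PGT and 3037 in PP, then 3361 in PH and 2084 in SC-β. The log2 ratio in SC-β was 1.51 as deposited and 1.01 after median-ratio rescaling, just past 2-fold. STAG2 was above hESCs in 2 of 5 stages as deposited, in 1 after median-ratio rescaling and in all 5 on the scale of the reference genes, so no direction is given for it alone.

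STAG1 (ENSG00000118007.13) spans chr3:136336236-136752403 on the reverse strand. Its exons reach into the span of PCCB, a gene of the opposite strand that encodes a mitochondrial carboxylase subunit. Whether they meet exons of PCCB was not examined. PCCB was between 10.7 TPM in PH and 24.8 TPM in SC-β, and in hESCs it was at 23.8 TPM, above STAG1. The labels name a strand-specific library, but whether reads were counted by strand is not given in the sources used here, so reads of the shared part cannot be told apart. STAG2 (ENSG00000101972.20) spans chrX:123960212-124422664 on the forward strand, and its exons reach into the span of the protein-coding gene TENM1 on the other strand. TENM1 was at most at 4.48 TPM.

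Of the 5 stages set against hESCs, only PH and SC-β had members past 2-fold. In DE, 0 of 10 members were at least 2-fold above hESCs, where 28.2% of all names at 1 TPM or more were, and 0 were at least 2-fold below, against 5.55% of names. In PGT, 0 members were above and 0 below, against 23.4% and 10.0% of names. In PP the counts were also 0 and 0, against 18.9% and 9.63%.

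In PH, 1 member, LDB1, was at least 2-fold above hESCs, where 27.3% of names were, and 0 were below, against 18.9%. In SC-β, 2 members, STAG1 and LDB1, were above, where 42.4% of names were, and 0 were below, against 7.08%. Many of these names lie near 1 TPM, whereas 9 of the 10 members stayed at 10 TPM or more, and CTCFL was too low to pass 2-fold with a pseudocount of 1 TPM. Among names that reached 10 TPM in hESCs or the stage compared, 23.5% were above hESCs in DE, 21.7% in PGT and 16.3% in PP, then 22.8% in PH and 32.3% in SC-β. For the 9 members the counts were 0, 0, 0, 1 and 2, and so few genes do not set them apart from these shares.

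Over these 9 members, the median log2 ratio to hESCs was 0.47 in DE, 0.25 in PGT, 0.15 in PP, -0.30 in PH and 0.28 in SC-β. The median over all names that reached 10 TPM in hESCs or the stage compared was 0.39, 0.24, 0.13, -0.08 and 0.46. The medians lay close to each other in DE, PGT and PP, but single members went both ways around them: in PH, LDB1 was at 1.34 and SMC3 at -0.68. After rescaling, the medians of the 9 members were 0.0051 in DE, -0.08 in PGT and -0.10 in PP, then -0.33 in PH and -0.23 in SC-β. Those of all names that reached 10 TPM were then -0.07, -0.08, -0.11, -0.10 and -0.04.

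**Figure D3:**
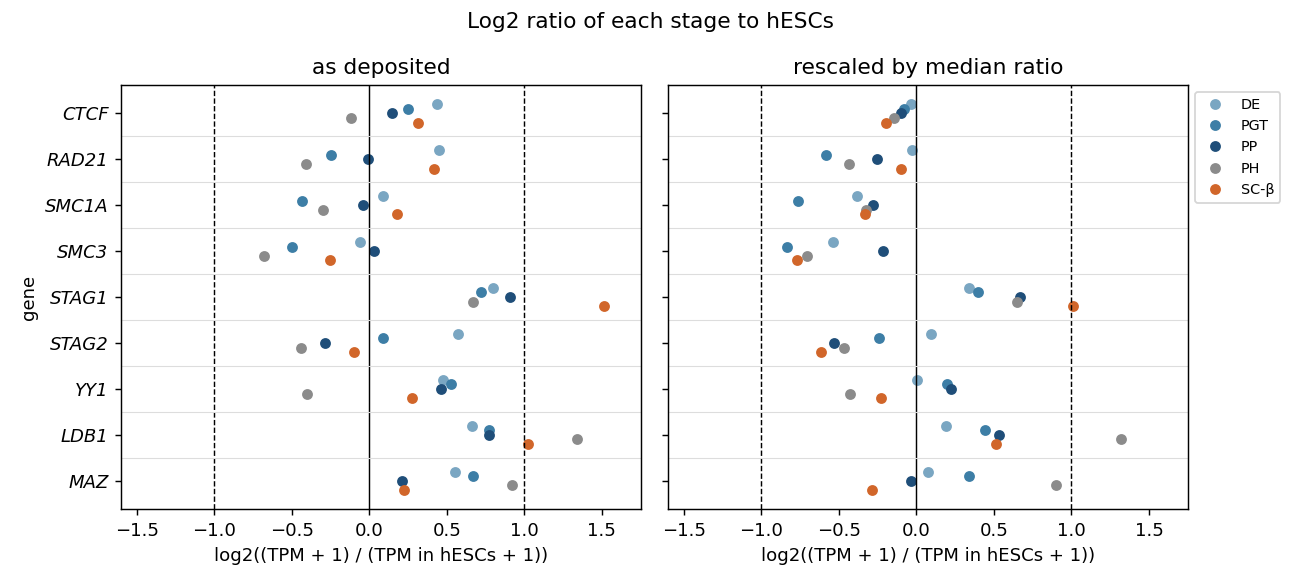
Log2 ratio of mean TPM to hESCs (horizontal axes, pseudocount of 1 TPM) for the 9 members other than CTCFL (vertical axis), as deposited on the left and after median-ratio rescaling on the right. Each point is 1 stage, and dashed lines mark 2-fold. As deposited, LDB1 in PH (1.34) and SC-β (1.03) and STAG1 in SC-β (1.51) lie past the line, and on the right LDB1 in SC-β lies at 0.51.

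LDB1 had the widest range of the members after rescaling. It encodes an adaptor that binds LIM-domain proteins and itself, and so can hold distant enhancers near promoters. Its level was 40.4 TPM in hESCs, 64.6 in DE, 69.6 in PGT and 69.9 in PP, then 103.9 in PH and 83.3 in SC-β. PH was highest, hESCs lowest, and PGT and PP were nearly equal.

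LDB1 was above hESCs in all 5 later stages on all 5 scales tried, as STAG1 was. In PH its log2 ratio was 1.34 as deposited and 1.32 after rescaling. In SC-β the ratio of 1.03 became 0.51 after rescaling, which is less than 2-fold. Relative to CTCF in the same stage, the LDB1 level was 1.04 in hESCs, 2.91 in PH and between 1.22 and 1.72 in the other stages, so that PH stood apart on a measure that scaling cannot move.

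MAZ was at 48.3 TPM in hESCs, 71.2 in DE, 77.4 in PGT and 56.1 in PP, then 92.4 in PH and 56.8 in SC-β. PH was again the highest stage, and its log2 ratio of 0.92 was less than 2-fold. After median-ratio rescaling MAZ was highest in PH at 109.9 TPM and lowest in SC-β at 47.8 TPM, below the 58.5 TPM of hESCs. Relative to CTCF, MAZ was at 2.59 in PH and between 1.174 and 1.67 in the other stages.

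YY1, a zinc finger factor found at active promoters and enhancers, was at 29.4 TPM in hESCs, 41.3 in DE, 42.9 in PGT and 40.9 in PP, then 22.0 in PH and 35.9 in SC-β. DE, PGT and PP were within 2 TPM of each other, and PH was lowest, both as deposited and after median-ratio rescaling (26.2 TPM), but on the scale of the reference genes hESCs were lowest, at 23.1 TPM against 29.7 TPM in PH. Relative to CTCF, YY1 was at 0.618 in PH and at most at 0.953, in PP. In PH, LDB1 and MAZ were therefore at their highest and YY1 at its lowest relative to CTCF. The part of the neural and mesenchymal RNA of PH in these levels was not tested.

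**Figure D4:**
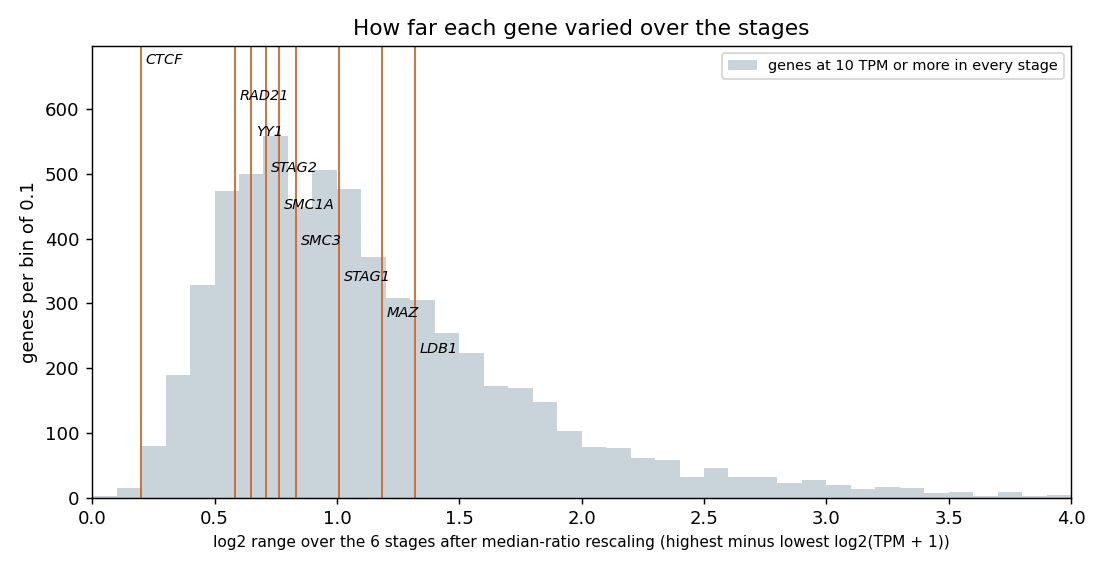
Number of genes (vertical axis) by the range of log2(TPM + 1) over the 6 stages after median-ratio rescaling (horizontal axis, bins of 0.1), for the 6212 genes that stayed at 10 TPM or more; ranges beyond 4 are not drawn. Vertical lines mark the 9 members other than CTCFL, from CTCF at 0.20 to LDB1 at 1.32, with STAG1 at 1.01 next to the median gene at 1.00.

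The other members took middle places in this distribution. After rescaling, the range was 0.58 for RAD21, 0.65 for YY1, 0.71 for STAG2, 0.76 for SMC1A, 0.83 for SMC3, 1.01 for STAG1, 1.18 for MAZ and 1.32 for LDB1. The share of genes with a smaller range was 16.0% for RAD21, 50.7% for STAG1 and 69.8% for LDB1. On this scale, CTCF was the member nearest to an end of the distribution, and STAG1 varied about as much as the median gene. These places depend on the scale. STAG1 exceeded 75.5% of genes as deposited and 84.3% on the scale of the reference genes, where LDB1 exceeded 89.7%, SMC3 8.48% and CTCF 17.4%.

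The germline relatives of the ring subunits include genes with appreciable RNA. REC8, the kleisin that takes the place of RAD21 in meiosis, was at 16.9 TPM in hESCs, 35.8 in DE, 12.03 in PGT and 62.1 in PP, then 42.0 in PH and 75.8 in SC-β. Its share of the summed RAD21, REC8 and RAD21L1 RNA was 14.3% in hESCs, 20.5% in DE, 12.4% in PGT and 38.1% in PP, then 35.5% in PH and 35.9% in SC-β. PP, PH and SC-β were thus close to each other and stood above the earlier stages.

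STAG3, the meiotic STAG subunit, was at 4.05 TPM in hESCs, 26.2 in DE, 18.8 in PGT and 11.5 in PP, then 10.6 in PH and 13.5 in SC-β. It made up 4.602% of the RNA of the 3 STAG genes in hESCs and between 10.5% and 16.7% later, with the highest share in DE. SMC1B, the meiotic partner of SMC3, never exceeded 0.406 TPM or 0.845% of the summed SMC1A and SMC1B RNA. RAD21L1, another meiotic kleisin, was listed at 0 in hESCs and SC-β and was at most at 0.138 TPM, in PH.

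The 8 germ cell markers summed to between 0.937 TPM in PH and 4.67 TPM in hESCs, and DDX4 and DAZL, which define germ cells, did not exceed 0.202 TPM. REC8 (ENSG00000100918.14, chr14:24171853-24180257, forward strand) has exons that reach into the span of IPO4 on the reverse strand, which was between 14.0 and 24.2 TPM. IPO4 had its highest level in hESCs, whereas REC8 had its highest in SC-β, and its part in the REC8 values was not tested. STAG3 lies among near-identical copies on chromosome 7 such as STAG3L5P, which was between 18.3 and 57.5 TPM, and it overlaps CASTOR3P on the other strand, listed under its older name GATS at 5.13 TPM in hESCs and 52.1 TPM in DE. The STAG3 values are therefore uncertain, since reads of these copies and of the overlapping gene could be counted for it.

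**Figure D5:**
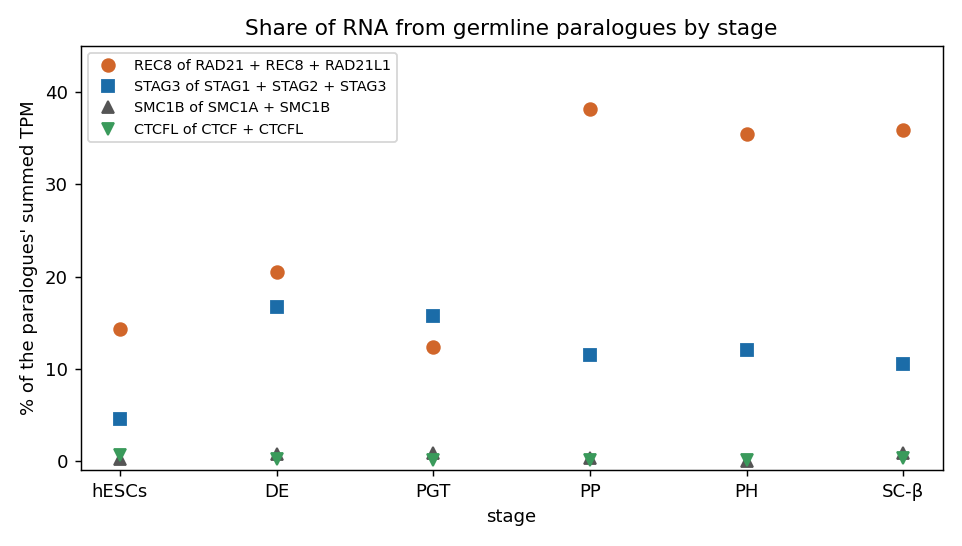
Share of each germline paralogue in the summed TPM of its family, in % on the vertical axis, by stage on the horizontal axis. REC8 is at 38.1% in PP and at 12.4% in PGT, STAG3 is highest in DE at 16.7%, and SMC1B and CTCFL are below 1% in every stage.

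Proteins that load, release or acetylate cohesin form the nearest pathway, and 9 of their genes were examined. NIPBL, the loader, was at 20.8 TPM in hESCs, 48.6 in DE, 43.3 in PGT and 35.2 in PP, then 36.7 in PH and 57.9 in SC-β. The log2 ratios of NIPBL were 1.18 in DE, 1.02 in PGT and 1.43 in SC-β as deposited. After rescaling they were 0.72, 0.70 and 0.93, all less than 2-fold. NIPBL was named for its role and not by the rule for named genes. In SC-β, 4 of these 9 were at least 2-fold above hESCs and 0 below, where 42.4% and 7.08% of all names were as deposited. After rescaling 2 were above and 2 below, where 20.9% and 18.9% of the names that reached 10 TPM were. In PH the counts were 2 above and 3 below on both scales, against 27.3% and 18.9% of all names as deposited. Of the names that reached 10 TPM, 22.8% were above and 24.5% below in PH as deposited, and 22.6% and 25.3% after rescaling.

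PDS5B, which binds the ring and regulates its release, was at 17.5 TPM in hESCs and at 68.3 TPM in SC-β, a log2 ratio of 1.91. MAU2, the partner of NIPBL, was at 10.9 TPM in hESCs and at 37.4 TPM in SC-β (log2 ratio 1.69). CDCA5, also called sororin, keeps cohesin on replicated DNA in dividing cells, and it was at 42.6 TPM in hESCs and at 12.8 TPM in PH, a log2 ratio of -1.66. WAPL, which opens the ring and is listed as WAPAL, was at 34.9 TPM in hESCs, 43.4 in DE, 39.7 in PGT and 33.6 in PP, then 20.4 in PH and 42.4 in SC-β, and PH was its lowest stage. As deposited, PH was also the lowest stage of RAD21 and SMC3, while after median-ratio rescaling theirs was PGT.

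Condensin and the SMC5 and SMC6 complex are relatives of cohesin that compact chromosomes and repair DNA. Of 10 of their genes, 0 were at least 2-fold below hESCs in DE, PP and SC-β, 2 in PGT and 4 in PH, and SMC5 in SC-β was the only one above. After rescaling, 3 were below in PGT, 4 in PH and 1, SMC6, in PP, and none was above in SC-β, where SMC5 was at a log2 ratio of 0.52. Of all names, 10.0% were below hESCs in PGT and 18.9% in PH as deposited, and 42.4% were above in SC-β. Of the names that reached 10 TPM, 16.9% were below in PGT, 25.3% in PH and 15.3% in PP after rescaling. SMC6 was at 65.6 TPM in hESCs and at 15.6 TPM in PH, a log2 ratio of -2.00. The condensin subunits NCAPH and NCAPG were at 41.0 and 42.7 TPM in hESCs and at 16.1 and 15.1 TPM in PGT. As deposited, the low stages of most condensin genes were those of the ring genes and of the proliferation markers, PGT and PH. NCAPH2 went the other way in PH, its highest stage, at 52.7 TPM against 36.8 TPM in hESCs.

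Among 13 relatives and partners of YY1, LDB1 and MAZ, 7 were at least 2-fold above hESCs in SC-β, or 4 after rescaling, and 1 was below on either scale. Of all names, 42.4% were above and 7.08% below as deposited. Of the names that reached 10 TPM, 20.9% were above and 18.9% below after rescaling. ZFP42, also called REX1, a relative of YY1 used as a pluripotency marker, was at 149.7 TPM in hESCs and at 0.838 TPM in PH, a log2 ratio of -6.36. LDB2, the paralogue of LDB1, was at 47.2 TPM in hESCs, 8.75 in DE, 0.857 in PGT and 4.43 in PP, then 10.3 in PH and 36.4 in SC-β. SC-β was its second highest stage, with a log2 ratio to hESCs of -0.37 as deposited and -0.88 after rescaling, and PGT, where LDB1 was at 69.6 TPM, was its lowest stage. LMO3, a LIM-only protein of the family that LDB1 binds, was at 1.02 TPM in hESCs and at 19.2 TPM in PH, and no other stage exceeded 4.44 TPM.

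The profiles most like those of CTCF, RAD21, STAG1 and STAG2 were sought among 6211 other genes that stayed at 10 TPM or more, by Pearson's r of log2(TPM + 1) over the 6 stage means. These points share the scaling of each stage, so high values of r are common and serve as a description only. For CTCF the nearest were ATP13A3 (r = 0.995), PPP2R2A and DNAJB14, and for RAD21 they were FAR1 (r = 0.996), USP12 and BDP1. For STAG1 they were DDX6 (r = 0.994), UNK and CAPN2, and for STAG2 they were FERMT2 (r = 0.997), TMEM14B and RPL7AP30. Among the members themselves, r of the deposited values was 0.89 between RAD21 and SMC1A, 0.78 between CTCF and RAD21, and -0.06 between STAG1 and STAG2. It was not computed after median-ratio rescaling, and the value for STAG1 and STAG2 does not show that they were unrelated. On the rescaled values SC-β had the highest STAG1 level (45.3 TPM) and the lowest STAG2 level (51.6 TPM).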

How the data were processed

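Total RNA was isolated with Trizol, ribosomal RNA was removed with RiboMinus and strand-specific libraries were made with a TruSeq Stranded mRNA kit, per the labels. The authors aligned reads to hg38 with HISAT2 (version 2.2.0), estimated TPM with StringTie (version 2.1.6) and deposited the mean TPM of the 2 replicates of each stage; the annotation used is not given in the sources used here. The table gives no reads, so depth, intervals and floors cannot be given. The 50451 entries were summed to 49085 names.

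Stages were compared on TPM as deposited and after median-ratio rescaling, with a pseudocount of 1 TPM, and names that reached 1 TPM in hESCs or the stage compared formed the background. With 1 mean per stage no test was run. Positions are from GENCODE version 44 on GRCh38 and promoters from RefSeq. Motif positions were found in windows of 250 bases before to 50 after each start. The named genes were all members, the germline subunits, up to 3 genes per further list with the largest log2 ratio at 10 TPM or more, and the 3 nearest profiles of CTCF, RAD21, STAG1 and STAG2; NIPBL, WAPL, MKI67, SMC5, SOHLH2, SYCP3 and the genes overlapping members were added after their values were seen, as were the examples given for the stage and germ cell markers. Members, lists and alternatives were chosen with earlier results of these data known. The CTCF motif letters were chosen after the windows were seen. The calculations were tested on simulated data. Python 3.11.15, numpy 2.4.6, pandas 2.3.3 and matplotlib 3.10.9 were used.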

Additional observations from a re-analysis of the deposited data

How the results depend on the processing

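The alternatives gave 459 values over 97 results, of which 349 kept their direction and side of 2-fold or stayed within the limit set for them (0.25 on the log2 scale for medians and ranges, 1.5 times for counts), 92 moved, 13 passed 2-fold, 5 came under it and 0 reversed from past 2-fold. With a pseudocount of 0.1 TPM, 1 member, CTCFL, was at least 2-fold below hESCs in PGT, PP and PH in place of 0. With median-ratio rescaling, 1 in place of 2 members was above in SC-β, and the median log2 ratio of the 9 members was 0.0051 in DE, -0.079 in PGT and -0.23 in SC-β. Without the 100 most abundant genes, 1 member was above in PP, 3 in PH and 1 in SC-β, and the median in PH was 0.018. Against the preceding stage, the median in PGT was -0.19 and 0 members were above in PH and SC-β. PP was taken as the stage before both PH and SC-β, which for the undefined PH is an assumption. At 1.5-fold, 2 members were above in DE and PP and 3 in PGT and PH, and 1 was below in PH. With the stages scaled to the 11 reference genes, chosen after seeing the data, 3 were above in PGT, 2 in PP and 3 in PH, and the median was 0.66 in PGT, 0.53 in PP, 0.46 in PH and 0.62 in SC-β. After median-ratio rescaling, 20.9% of the names that reached 10 TPM were above in SC-β. For the other alternative counts of members given here no share of all names was computed, so they cannot be set against a background. The STAG1 and CTCFL shares did not move, since scaling cannot move them and each gene has 1 entry. Their 12 values are counted among the 349 although they could not have changed. Leaving out PH, also chosen after seeing the data, moved the range of 3 members. The cause of these moves was not tested beyond the construction of each alternative. No paired analysis was possible because each deposited column averages its replicates, and leaving out each replicate in turn was not possible for the same reason. Depth is unknown, so values below 1 TPM have no known precision.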
